A study of Mus musculus with 10 samples.

Results

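Transcripts of the nuclear factor kappa B (NF-kB) pathway were read in mouse granulosa cells for 10 genes. The 10 were chosen by name, with earlier results of these data known. They were the TRAF adaptors and their partners Traf2, Traf3, Traf6, Traf3ip2 and Birc3, and the NF-kB subunits and their inhibitor Nfkb1, Nfkb2, Rela, Relb and Nfkbia. Proteins and the activity of NF-kB signalling were not measured. Of the 10, 8 had a probe set that carried their symbol alone, and Traf3 and Nfkb1 were not analysed here. These 8 were read among 19938 genes. The cells came from mice homozygous for a lacZ insertion in Pgr, the progesterone receptor gene (PRKO), and from heterozygous mice (PR+/-), so the controls also carried the insertion, in 1 copy. The insertion is in the germline and disrupts both receptor isoforms, so its effect is not limited to granulosa cells. Mice of both genotypes were 21 to 23 days old and received 5 IU of equine chorionic gonadotropin, which grows follicles, and 44 to 47 h later 5 IU of human chorionic gonadotropin (hCG), which starts ovulation. Cells were taken from punctured antral follicles 8 h after hCG. Each whole-transcript microarray read 1 pool of cells from 3 animals, with 5 PRKO and 5 PR+/- pools. All values are log2 expression values as deposited, and differences are PRKO minus PR+/- on that scale.

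NF-kB is a family of dimeric transcription factors held in the cytoplasm by inhibitor proteins such as IkB-alpha, the product of Nfkbia. Receptors for tumour necrosis factor (TNF), interleukin-1 (IL-1), interleukin-17 (IL-17) and microbial products recruit TRAF adaptors, which activate the IKK kinases and so free the dimers, and the dimers in turn induce Nfkbia and other inhibitors. In the ovary, cytokine signalling of this kind accompanies the inflammation-like response by which the follicle ruptures.

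Of the 8 measured genes, 1, Traf3ip2, fell in PRKO granulosa cells, and the other 7 did not pass the threshold. Since the genes were chosen with earlier results of these data known, this count is a description and not an independent test. Genes were called at a limma adjusted p (Benjamini-Hochberg) under 0.05 over all genes tested. Calls made up 2.46% of all 19938 genes, calls lower in PRKO 1.71% and calls higher in PRKO 0.752%. Unadjusted p under 0.05 in limma was reached by 2 of the 8, against 13.0% of all genes, a share that also applies to the lists below. The matching share for exact permutation is not given here, so permutation counts have no baseline. The pools of the 2 genotypes did not overlap in 1 of the 8, against 4.42% of all genes. The median log2 difference of the 8 was 0.01 and that of all genes was -0.02.

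Pgr itself read 6.15 to 6.90 in PRKO pools, against 6.07 to 7.70 in PR+/- pools (limma adjusted p = 0.527). The labels do not say whether its probes lie before or after the insertion, so this reading does not check the genotypes. Array medians lay between 6.48 and 6.55. The 95th percentile of 1027 olfactory receptor genes, 5.86, served as the level of background signal, and a gene is called dim where its mean lay under it. All 8 measured members lay above it in both genotypes. Of 10 granulosa cell markers, 8 were measured (Foxl2, Amhr2, Fshr, Inha, Inhba, Hsd17b1, Nr5a2 and Cyp11a1) and all 8 lay above it in both genotypes.

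Traf3ip2 encodes Act1, the adaptor that joins the IL-17 receptor to TRAF6 and TRAF2 and is itself a ubiquitin ligase. It read 8.91, 8.52, 8.54, 8.81 and 8.86 in PRKO pools 1 to 5, against 9.50, 9.29, 9.38, 9.51 and 9.46 in PR+/- pools 1 to 5 (probe set 10362615). Every PRKO pool lay under every PR+/- pool, and the highest PRKO pool stood 0.38 under the lowest PR+/- pool. The mean was 8.73 ± 0.18 in PRKO and 9.43 ± 0.09 in PR+/- (SD, n = 5 pools each). Traf3ip2 was thus 1.62-fold lower in PRKO, a log2 difference of -0.70 (SE 0.09, 95% interval -0.89 to -0.51, limma adjusted p = 0.000370). Its p ranked 112 among the 19938 genes. With each pool left out in turn the difference lay between -0.75 and -0.65, and the highest adjusted p was 0.00183. The exact two-sided permutation test over the 10 pools gave p = 0.00794, the smallest it can give. Since each value is from a bulk pool, fewer cells with the transcript and less transcript per cell cannot be told apart.

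Birc3 encodes cIAP2, a ubiquitin ligase that TRAF2 brings to TNF family receptors and that marks NF-kB-inducing kinase for degradation. It read 7.32, 7.45, 7.35, 7.26 and 7.51 in PRKO pools 1 to 5, against 7.66, 7.76, 7.73, 7.70 and 7.49 in PR+/- pools 1 to 5. The groups overlapped only through pool 5 of each genotype, the highest PRKO pool and the lowest PR+/- pool. The log2 difference was -0.29 (SE 0.07, 95% interval -0.45 to -0.13), and the adjusted p of 0.0608 missed the threshold (exact two-sided permutation p = 0.0159). Birc3 passed without PR+/- pool 5 (adjusted p = 0.0371) or PRKO pool 5 (0.0454), and with all pools after quantile normalization (0.0230), with array weights (0.0322) or with genes under the 30th percentile of mean value left out (0.0384). It missed the threshold without any of the other 8 pools (adjusted p up to 0.154) and under the other 5 limma settings.

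**Figure D1:**
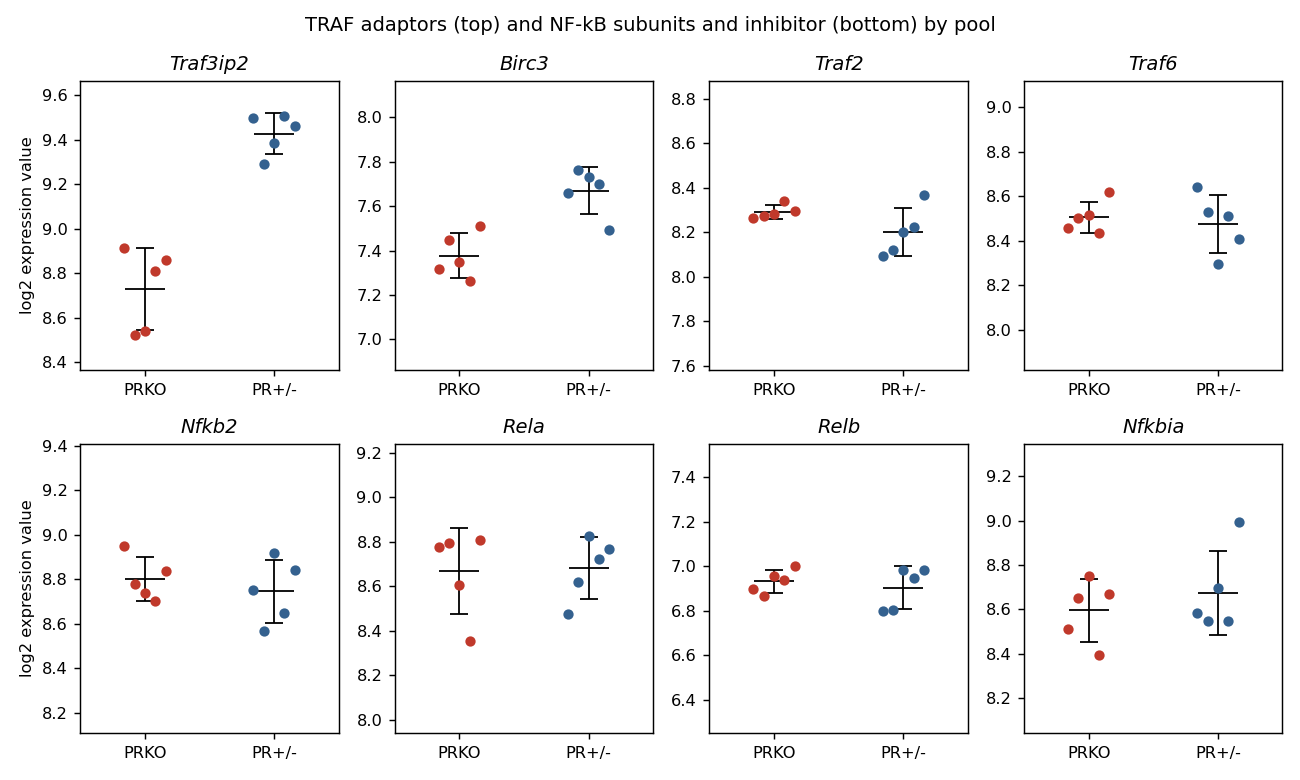
Log2 expression values of the 8 measured genes in each pool (points), with the mean and SD (bars) of 5 PRKO pools on the left and 5 PR+/- pools on the right of each panel. Every panel spans the same range of log2 units. In Traf3ip2 the PRKO pools (8.52 to 8.91) lie under the PR+/- pools (9.29 to 9.51), in Birc3 the groups meet at pool 5 of each genotype, and in the other 6 genes they overlap.

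TRAF2 and TRAF6 are the adaptors that Act1 and the TNF, IL-1 and Toll-like receptors use. Traf2 read 8.26, 8.27, 8.28, 8.34 and 8.30 in PRKO pools 1 to 5, against 8.09, 8.12, 8.20, 8.22 and 8.37 in PR+/- pools 1 to 5. All 5 PRKO pools lay above the PR+/- median but inside the PR+/- range. The log2 difference of Traf2 was 0.09 (SE 0.07, 95% interval -0.06 to 0.24, adjusted p = 0.629). Traf6 read 8.46, 8.50, 8.52, 8.44 and 8.62 in PRKO pools, against 8.64, 8.53, 8.29, 8.51 and 8.41 in PR+/- pools, and its PRKO pools too lay inside the PR+/- range. The log2 difference of Traf6 was 0.03 (SE 0.08, 95% interval -0.13 to 0.19, adjusted p = 0.919).

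None of the 3 measured NF-kB subunits passed the threshold, and the pools of the genotypes overlapped in each. Nfkb2, whose product p100 is cut to p52 in the alternative pathway, read 8.95, 8.78, 8.74, 8.70 and 8.84 in PRKO pools 1 to 5, against 8.75, 8.57, 8.92, 8.65 and 8.84 in PR+/- pools 1 to 5. Relb, the partner of p52, read 6.90, 6.87, 6.95, 6.94 and 7.0 in PRKO pools, against 6.80, 6.80, 6.98, 6.95 and 6.98 in PR+/- pools. Rela, the p65 subunit of the canonical pathway, read 8.78, 8.79, 8.61, 8.35 and 8.81 in PRKO pools, against 8.47, 8.62, 8.83, 8.72 and 8.76 in PR+/- pools. In each of the 3 genes 4 of the 5 PRKO pools lay inside the PR+/- range. The log2 differences were 0.06 for Nfkb2 (95% interval -0.12 to 0.23), 0.03 for Relb (-0.12 to 0.17) and -0.01 for Rela (-0.22 to 0.20).

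Nfkbia, the inhibitor that NF-kB itself induces, read 8.51, 8.65, 8.75, 8.40 and 8.67 in PRKO pools 1 to 5, against 8.58, 8.55, 8.70, 8.55 and 9.00 in PR+/- pools 1 to 5. PR+/- pool 5 was the highest of the 10 and the other 9 pools were intermixed. The log2 difference was -0.08 (SE 0.10, 95% interval -0.29 to 0.13, adjusted p = 0.799), and it was 0.0026 without PR+/- pool 5. Over the subunits and the inhibitor together, 0 of 4 passed in limma, against 2.46% of all genes. An unadjusted p under 0.05 was reached by 0 of 4 in limma, against 13.0% of all genes, and by 0 of 4 in exact permutation. The 95% intervals of these 4 genes excluded a change of more than 1.22-fold in either direction.

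Promoters of the genes that encode the NF-kB system often hold sites for NF-kB itself, so the promoter windows of these genes are shown where RefSeq (build GRCm38.p6) gives them. Each window runs from 250 bases before to 50 after the annotated start, 5′ to 3′, with matches to the NF-kB consensus motif in capitals. The motif is 10 letters long and was searched on both strands. The Nfkb2, Nfkbia and Birc3 windows stand for the alternative subunit, the inhibitor and the gene nearest to the threshold.
Nfkb2 promoter, chr19:46304487-46304786, plus strand: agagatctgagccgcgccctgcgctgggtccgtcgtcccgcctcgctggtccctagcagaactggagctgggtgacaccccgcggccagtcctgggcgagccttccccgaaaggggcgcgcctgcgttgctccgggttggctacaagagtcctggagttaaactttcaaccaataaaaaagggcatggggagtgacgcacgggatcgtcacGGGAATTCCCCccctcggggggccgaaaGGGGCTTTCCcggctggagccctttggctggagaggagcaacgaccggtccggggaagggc
Nfkb2 promoter, chr19:46305445-46305744, plus strand: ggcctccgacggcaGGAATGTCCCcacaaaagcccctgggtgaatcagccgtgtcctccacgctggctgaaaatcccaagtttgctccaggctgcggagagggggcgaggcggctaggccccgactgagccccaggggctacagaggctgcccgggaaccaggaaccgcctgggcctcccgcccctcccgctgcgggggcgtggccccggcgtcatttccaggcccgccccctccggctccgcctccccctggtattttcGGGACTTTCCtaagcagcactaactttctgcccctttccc
Nfkbia promoter, chr12:55492598-55492897, minus strand: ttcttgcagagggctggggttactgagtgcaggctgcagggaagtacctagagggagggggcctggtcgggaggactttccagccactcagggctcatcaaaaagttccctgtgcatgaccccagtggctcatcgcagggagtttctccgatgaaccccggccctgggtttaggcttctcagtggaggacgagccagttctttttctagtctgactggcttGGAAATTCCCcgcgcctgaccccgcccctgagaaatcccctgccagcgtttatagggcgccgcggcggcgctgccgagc
Birc3 promoter, chr9:7873121-7873420, minus strand: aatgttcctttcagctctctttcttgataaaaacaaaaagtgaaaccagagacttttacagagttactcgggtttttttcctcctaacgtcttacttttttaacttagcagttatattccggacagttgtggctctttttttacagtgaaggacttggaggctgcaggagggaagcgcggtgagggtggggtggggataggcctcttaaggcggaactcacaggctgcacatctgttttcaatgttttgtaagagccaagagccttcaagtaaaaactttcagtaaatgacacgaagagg
The first Nfkb2 window held 3 matches, of which a pair overlapped, the second held 2 matches, and the Nfkbia window held 1. The Birc3 window held no match. RefSeq windows were at hand for 7 of the 10 members (9 windows, Nfkb2 having 3), and Traf3ip2, Nfkb1 and Relb had none. The consensus occurred in 5 of the 9 windows, from 3 genes (Nfkb2, Nfkbia and Traf3), against 8.46% of all 32851 windows. The last pair of Nfkb2 windows overlap and share 1 match. The steroid receptor half-site TGTTCT, searched on both strands, occurred in none of the 9 windows, against 19.0% of all windows. Neither motif could be searched for Traf3ip2, the called member. A match describes the letters of the window and not the binding of a factor, and neither Nfkb2 nor Nfkbia was among the genes called.

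The 5 genes whose values followed Traf3ip2 most closely over the 10 pools, by Pearson correlation, were Apol6 (r = 0.985), Rnf180 (r = 0.982), Pitpnc1 (r = 0.980), Stxbp6 (r = 0.979) and Smarca1 (r = 0.978). All 5 were lower in PRKO, by log2 differences of -1.05, -1.05, -1.01, -1.24 and -0.91 in that order. The 10 pools include both genotypes, so a genotype difference shared with Traf3ip2 enters these r values, and none of the 5 belongs to the pathway lists.

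The rest of the pathway was read in 7 lists of NF-kB and TRAF genes, with 141 of 150 genes measured. Of these, 2 were called lower in PRKO and none higher, or 1.42% against the 2.46% of all genes called. Of the 141, 21 had an unadjusted limma p under 0.05, against 13.0% of all genes. Pools of the genotypes did not overlap in 6 of the 141, against 4.42% of all genes. The median log2 difference of the 141 was -0.03. The 2 called genes were Il17ra, the receptor chain that recruits Act1, and Il6, the cytokine interleukin-6. The count of 2 was 0 without PRKO pool 1 or 2 or PR+/- pool 1 or 3. It was 1 without PRKO pool 5 or PR+/- pool 2 or 5 and after quantile normalization, and 4 without PRKO pool 3. It was 3 with array weights or an intensity trend (Ier3 added) and with the replicate number as a block (Il18 added). It was also 3 (Il17ra, Il18 and Ier3) with genes under the 30th percentile of mean value left out, where Il6 was not tested.

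Il17ra read 8.59, 8.79, 8.95, 8.71 and 8.86 in PRKO pools 1 to 5, against 9.12, 9.09, 9.23, 8.95 and 9.23 in PR+/- pools 1 to 5. The groups did not overlap, though PRKO pool 3 and PR+/- pool 4 were equal when rounded. Il17ra was 1.27-fold lower in PRKO (log2 difference -0.35, SE 0.08, 95% interval -0.53 to -0.17, limma adjusted p = 0.0455). The call was lost without any 1 of 8 pools, with adjusted p up to 0.121, and held only without PRKO pool 3 (0.0268) or PR+/- pool 4 (0.0393). It held under all 8 other limma settings tried with all 10 pools (adjusted p 0.0280 to 0.0452). Of these, averaging probe sets could not change the values of Il17ra, which has 1 probe set.

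Genes of the IL-17 receptors and ligands, singled out after the values of Traf3ip2 and Il17ra were seen, otherwise did not pass. The other 4 measured receptor chains (Il17rb, Il17rc, Il17rd and Il17re) had log2 differences between -0.05 and 0.14, with adjusted p of at least 0.414. Of 6 ligand genes (Il17a, Il17b, Il17c, Il17d, Il17f and Il25), 0 passed in limma, 1 had an unadjusted p under 0.05 in limma and 1 by exact permutation, and the differences lay between -0.19 and 0.08. Il17f had the smallest p of them, at a log2 difference of -0.19 (SE 0.08, adjusted p = 0.339). All these receptor and ligand genes lay above the background level of 5.86 in both genotypes, some of them barely. PRKO and PR+/- means were 5.89 and 5.94 for Il17rb, 5.90 and 6.02 for Il17a, 5.97 and 6.16 for Il17f, and 5.99 and 5.98 for Il17re. So close to background, small differences say little about the transcripts.

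Il6, an NF-kB target, was dim in both genotypes. It read 4.17, 3.95, 3.88, 4.55 and 4.38 in PRKO pools 1 to 5, against 5.39, 4.69, 5.25, 4.50 and 5.03 in PR+/- pools 1 to 5, and only PRKO pool 4 and PR+/- pool 4 crossed. The log2 difference was -0.79 (SE 0.17, limma adjusted p = 0.0223). Both means, 4.19 in PRKO and 4.97 in PR+/-, lay under the background level of 5.86, so whether the transcript itself fell is uncertain. The call was lost without any 1 of 6 pools (PRKO 1, 2 or 3, PR+/- 1, 3 or 5, adjusted p up to 0.0707) and after quantile normalization (0.0545). The promoter window of Il6, shown as the called target gene with a RefSeq entry, held 1 match to the consensus, which occurs in 8.46% of all windows. Among named pathway genes that were not called, Ier3, Bcl2l1, Tnfaip3, Tnip1 and Map3k7 also had a window with a match. Traf1, Ticam1, Tab3, Tnfrsf12a, Eda2r, Il17f and Il18 had none. Among the named pathway genes with a window, the half-site TGTTCT occurred only in 1 window of Tnfaip3 and in that of Il18, against 19.0% of all windows. Any link of the consensus match to the lower reading of Il6 was not tested.
Il6 promoter, chr5:30012864-30013163, plus strand: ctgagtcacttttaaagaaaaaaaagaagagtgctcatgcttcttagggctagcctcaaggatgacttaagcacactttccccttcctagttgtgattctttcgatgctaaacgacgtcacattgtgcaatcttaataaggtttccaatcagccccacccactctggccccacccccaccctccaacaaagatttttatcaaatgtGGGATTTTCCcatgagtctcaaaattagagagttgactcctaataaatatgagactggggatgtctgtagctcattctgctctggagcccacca
In the list of 29 NF-kB target genes Il6 was the 1 call, and the list median was -0.02. Ier3, an immediate early response gene, stood at 0.52 (SE 0.13, adjusted p = 0.0612), and Bcl2l1, which encodes the survival protein BCL-XL, at -0.24 (SE 0.09, adjusted p = 0.237). Ier3 passed without PRKO pool 3 or PR+/- pool 5, with array weights, with an intensity trend or with genes under the 30th percentile of mean value left out (adjusted p 0.0315 to 0.0477), and missed without any of the other 8 pools (up to 0.164) and under the other 5 settings. The targets linked to cumulus expansion, named after their values were seen, were Ptgs2 at -0.06 (SE 0.13) and Tnfaip6 at 0.10 (SE 0.13).

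**Figure D2:**
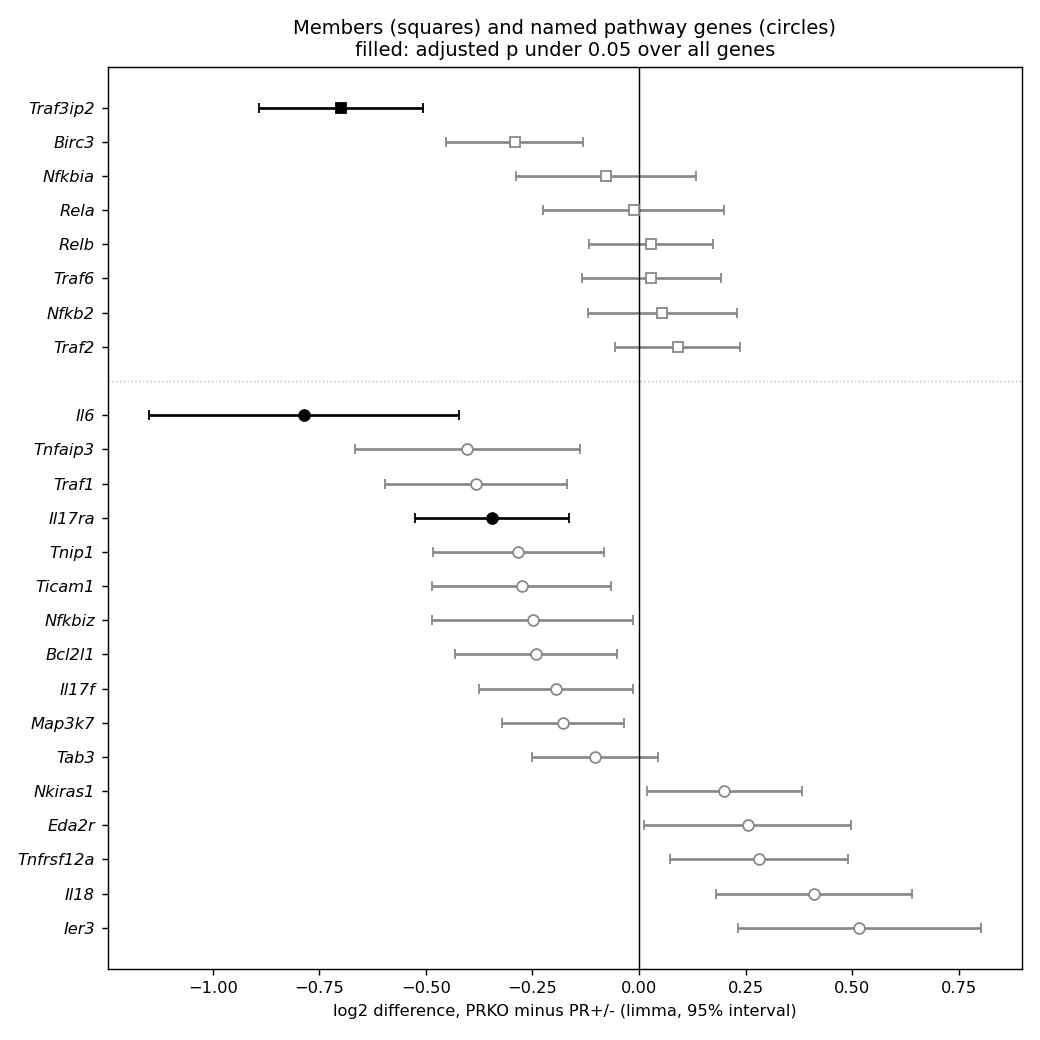
Log2 difference, PRKO minus PR+/-, with limma's 95% interval, for the 8 members (squares) and the 16 named pathway genes (circles), 5 pools per genotype. Filled symbols passed an adjusted p under 0.05 over all genes: Traf3ip2 (-0.70), Il6 (-0.79) and Il17ra (-0.35).

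Other inhibitors and feedback genes of the pathway did not pass. Of 20 ubiquitin ligases and deubiquitinases, 0 passed in limma. An unadjusted p under 0.05 was reached by 4 in limma, against 13.0% of all genes, and by 4 in exact permutation. Tnfaip3, which encodes the ubiquitin-editing inhibitor A20, read 7.55, 6.99, 7.28, 7.02 and 7.28 in PRKO pools 1 to 5, against 7.60, 7.70, 7.90, 7.28 and 7.65 in PR+/- pools 1 to 5 (log2 difference -0.40, SE 0.12, adjusted p = 0.134). Its partner Tnip1 stood at -0.28 (SE 0.09, adjusted p = 0.175). In each gene 4 of the 5 PRKO pools lay under all PR+/- pools, and the remaining one (PRKO pool 1 in Tnfaip3, PRKO pool 5 in Tnip1) lay inside the PR+/- range and under its median. In Tnfaip3, though, PRKO pools 3 and 5 and PR+/- pool 4, the lowest PR+/- pool, were equal when rounded.

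Among 10 further NF-kB subunits and inhibitors, 0 passed in limma. An unadjusted p under 0.05 was reached by 2 in limma, against 13.0% of all genes, and by 1 in exact permutation. Nkiras1, which encodes a small GTPase that slows the loss of IkB, stood at 0.20 (SE 0.08, adjusted p = 0.325), or 0.13 without PRKO pool 5, and Nfkbiz, an atypical IkB protein that IL-17 is known to induce, at -0.25 (SE 0.11, adjusted p = 0.350), or -0.16 without PRKO pool 2. Rel, the gene of the remaining activating subunit c-Rel and named after its values were seen, stood at 0.06 (SE 0.08).

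Of 15 measured kinases and scaffolds of the IKK arm, 0 passed in limma. An unadjusted p under 0.05 was reached by 1 in limma, against 13.0% of all genes, and by 1 in exact permutation. Map3k7, which encodes the kinase TAK1 upstream of IKK, stood at -0.18 (SE 0.07, adjusted p = 0.252) and Tab3, its adaptor, at -0.10 (SE 0.07). The IKK genes Ikbkb (0.02) and Ikbkg (-0.08), named after their values were seen, had intervals that covered 0.

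In the list of other TRAF family genes and adaptors, 0 of 23 passed in limma. An unadjusted p under 0.05 was reached by 6 in limma (3 lower and 3 higher), against 13.0% of all genes, and by 6 in exact permutation. Traf1, itself an NF-kB target, was dim in both genotypes. It read 4.56, 4.61, 4.80, 4.84 and 4.34 in PRKO pools 1 to 5, against 5.19, 4.96, 5.09, 4.85 and 4.98 in PR+/- pools 1 to 5 (log2 difference -0.38, SE 0.10, adjusted p = 0.0635). Traf1 passed without PRKO pool 3 (0.0483) or 4 (0.0409), and missed without any of the other 8 pools (up to 0.154) and under the 7 other limma settings that tested it. Ticam1, the TRIF adaptor of Toll-like receptors, stood at -0.28 (SE 0.10, adjusted p = 0.219). The paralogues Traf4 (0.19), Traf5 (0.22) and Traf7 (0.12), named after their values were seen, did not pass. Birc2, the cIAP1 paralogue of Birc3 and also named after its values were seen, stood at 0.07 (SE 0.10).

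In the receptor list (24 measured, 1 called), 3 had an unadjusted p under 0.05 in limma, against 13.0% of all genes, and 4 by exact permutation. Besides Il17ra, the list held Tnfrsf12a, the receptor of TWEAK, at 0.28 (SE 0.10, adjusted p = 0.205). Eda2r, a TNF family receptor for ectodysplasin, stood at 0.25 (SE 0.11, adjusted p = 0.354), or 0.16 without PR+/- pool 4. Of 20 measured ligands, 0 passed in limma, and 2 had an unadjusted p under 0.05 in limma, against 13.0% of all genes, and 2 by exact permutation. Of the 20, 10 were dim in both genotypes, Tnf, Il1a and Il1b among them (these 3 named after their values were seen). Il18, a cytokine of the IL-1 family, stood at 0.41 (SE 0.11, adjusted p = 0.0650). Il18 passed without PRKO pool 3 (0.0439), with genes under the 30th percentile of mean value left out (0.0489) and with the replicate number as a block (0.0280). It missed without any of the other 9 pools (up to 0.165) and under the other limma settings.

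**Figure D3:**
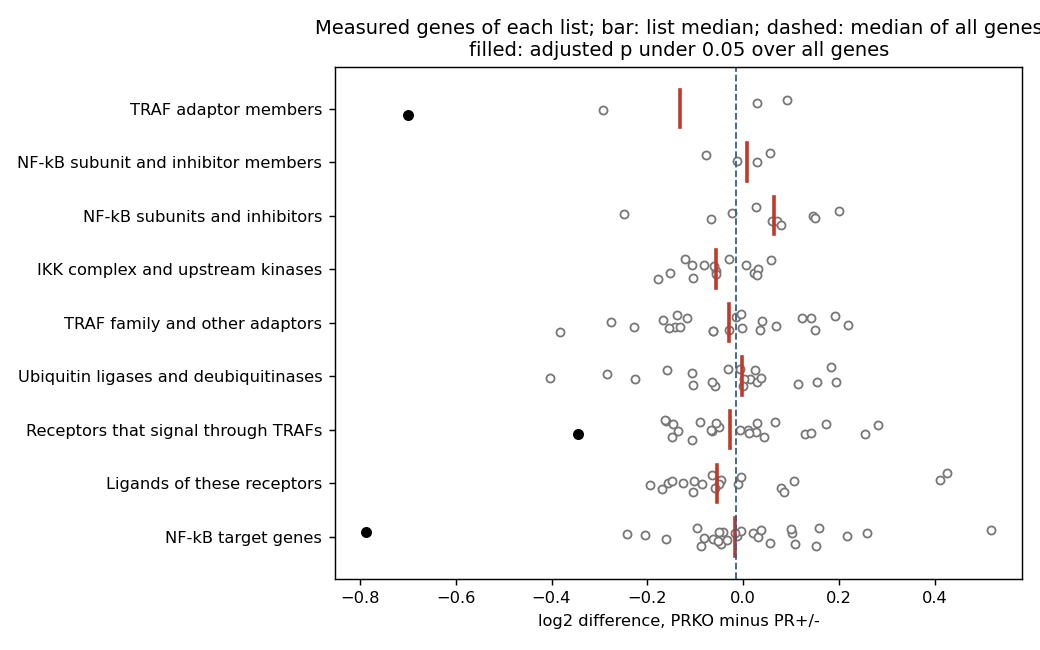
Log2 difference, PRKO minus PR+/-, of each measured gene in the member groups and the 7 pathway lists (points, filled where the adjusted p over all genes was under 0.05), with list medians (bars) and the median of all genes (dashed line, -0.02). The filled points are Traf3ip2, Il17ra and Il6, and the list medians lie between -0.13 and 0.06.

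Markers of other cells in the pools were read beside these genes. Of 16 leukocyte markers, 15 were measured, 0 passed in limma, 1 had an unadjusted p under 0.05 in limma and 0 by exact permutation. Their mean over the list ranged from 5.25 to 5.51 in PRKO pools, against 5.41 to 5.53 in PR+/- pools, and 11 were dim in both genotypes, among them the defining markers Ptprc, Adgre1 and Itgam, named after their values were seen. The log2 difference was below 0 for 12 of the 15 leukocyte markers (median -0.05), for 5 of 6 endothelial markers (median -0.07), for 6 of 6 oocyte markers (median -0.13) and for 2 of 6 theca and stroma markers (median 0.09), beside the median of -0.02 over all genes. The list mean ranged from 6.57 to 7.23 in PRKO pools against 6.60 to 7.05 in PR+/- pools for 6 endothelial markers, from 8.23 to 9.14 against 8.37 to 8.92 for 6 theca and stroma markers, and from 7.82 to 8.61 against 7.87 to 8.61 for 6 oocyte markers. None of these 18 genes passed in limma, and 2 had an unadjusted p under 0.05 in limma and 1 by exact permutation. In limma the 2 were 1 endothelial marker, higher in PRKO by 0.41, and 1 oocyte marker, lower in PRKO. Granulosa cell markers had a median log2 difference of 0.27, above 0 in 7 of 8, and 0 were called in limma. An unadjusted p under 0.05 was reached by 7 of these 8 in limma, 6 higher and 1 lower in PRKO, against 13.0% of all genes. In exact permutation it was reached by 5. The lower one was Fshr, the receptor of follicle-stimulating hormone, at -0.49 (SE 0.22, adjusted p = 0.361). The highest was Inhba, an activin and inhibin subunit, at 0.60 (SE 0.22, adjusted p = 0.233), and Nr5a2 stood at 0.04 (SE 0.12). The part of cell makeup in the differences of Traf3ip2, Il17ra and Il6 was not tested.

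**Figure D4:**
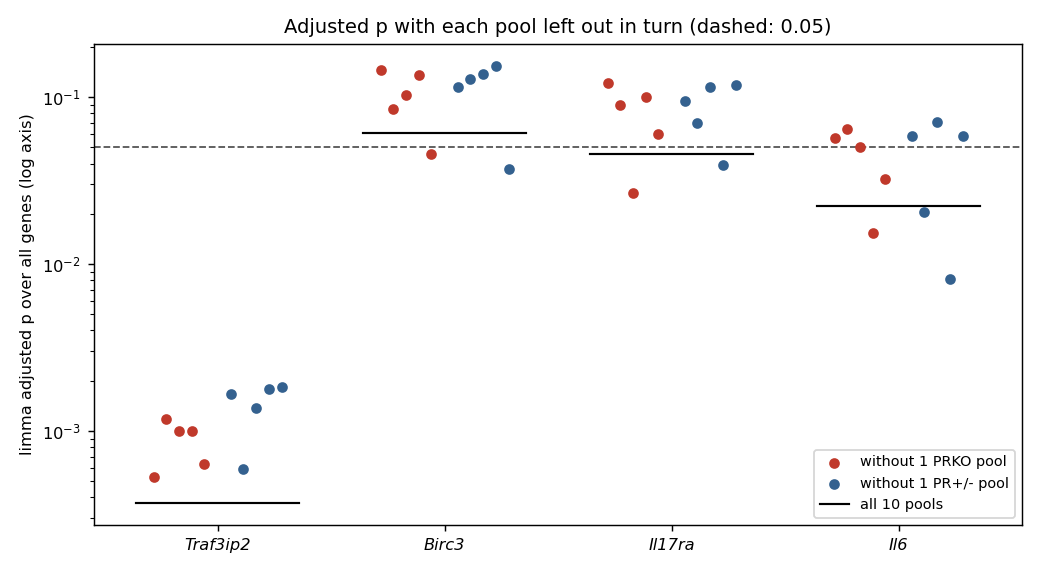
Limma adjusted p over all genes (log axis) for 4 genes with each PRKO pool (left points) or PR+/- pool (right points) left out, and with all 10 pools (bar). The points of Traf3ip2 lie at or under 0.00183, those of Birc3, Il17ra and Il6 on both sides of the dashed line at 0.05.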

How the data were processed

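RNA from granulosa cell pools was labelled as biotinylated cRNA and hybridized, per the labels' protocols. The authors deposited 1 log2 expression value per probe set and pool. The submitters' processing notes name Partek without steps, and neither background correction, normalization nor probe summarization is described there. In the platform annotation 21789 of 35557 probe sets had a single symbol, 1621 had several and 12147 had none. The probe set with the highest mean was kept for the 999 genes with several, and each measured member had 1. Symbols matched GRCm38.p6 by Entrez ID for 21698 probe sets, and 0 were updated. The genotypes were compared over all 19938 genes in limma 3.58.1 (R 4.3.3, equal weights, no block), and the pipeline was tested on simulated data. Exact permutation used all 252 splits. Arrays have no read depth, and the number of pools limits precision. Intervals are 95% intervals from limma.

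The members and lists were chosen with earlier results of these data known. The text names all members, each called pathway gene plus up to 2 others with the smallest p per list, all granulosa markers, and the 5 genes most correlated with a called member. Other genes named with values, apart from Pgr as the targeted gene, are marked in the text as named after their values were seen. Alternatives were quantile normalization, median centring, leaving out genes under the 30th percentile of mean value, array weights, a robust or intensity-dependent prior, a block for the replicate number, averaging the probe sets of a gene, exact permutation and leaving out each pool. Python 3.11.15, pandas 2.3.3, scipy 1.17.1 and matplotlib 3.10.9 made tables and figures.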

Additional observations from a re-analysis of the deposited data

Results flagged for a closer look

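In groups of 5 pools, a value was singled out where its gap to the nearest other pool, divided by the range of the group, was above 0.71 (Dixon's 95% critical value). None of the 16 member groups had such a value, and 2 of the 48 groups of members and named pathway genes did, where chance gives about 1 in 20. Nkiras1 read 8.98 in PRKO pool 5, above the other PRKO pools at 8.59 to 8.65. Il17f read 6.20 in PRKO pool 3, above the other PRKO pools at 5.89 to 5.96. Without PRKO pool 5 the log2 difference of Nkiras1 was 0.13 (limma adjusted p = 0.543), against 0.20 with all pools. Without PRKO pool 3 that of Il17f was -0.25 (limma adjusted p = 0.140), against -0.19 (0.339) with all pools. Both genes missed the threshold with all pools, and without the pool in question.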

How the results depend on the processing

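Over all genes, 491 calls became 472 to 598 under the other limma settings and 360 to 488 with a pool left out. The call of Traf3ip2 held under all 8 other limma settings (adjusted p 0.000158 to 0.000716) and with each pool left out. Of these settings, averaging probe sets could not change the values of the members, since each measured member had 1 probe set. By exact permutation adjusted over all genes, 0 of the 8 members passed, with 2 at an unadjusted p under 0.05 (Traf3ip2 and Birc3), since the smallest p of 252 splits adjusts to 0.18. The count of members called was 2, with Birc3 added, after quantile normalization, with array weights or without genes under the 30th percentile of mean value, and 1 to 2 with a pool left out. The pathway count of 2 was 1 after quantile normalization, 3 with array weights, an intensity trend or the percentile filter, and 0 to 4 with a pool left out. Differences near 0 changed sign. Traf6 was -0.0010 with array weights, and with a pool left out it ranged from -0.016 to 0.070 (lowest without PR+/- pool 3). With a pool left out Nfkbia ranged from -0.12 to 0.0026 (highest without PR+/- pool 5) and Rela from -0.064 to 0.066, above 0 when PRKO pool 3 or 4 or PR+/- pool 3 or 5 was left out. Nfkb2 ranged from 0.010 to 0.098 and Relb from 0.0019 to 0.048. With the replicate number as a block (replicate block), 1 member (Traf3ip2) and 3 pathway genes (Il17ra, Il6 and Il18) were called, Il18 at an adjusted p of 0.0280 and Birc3 missing at 0.107. Deviations of same-numbered pools correlated at 0.17, 0.22, 0.32, -0.10 and -0.05 for numbers 1 to 5. Of the 5 pairs 3 were over 0.1 and 5 of the 10 pools correlated best with their own number, so the numbers may pair some pools. Differently numbered pools also passed 0.1. PRKO pool 5 with PR+/- pool 1 had the highest r of all, 0.33. PRKO pool 4 reached 0.14 with PR+/- pool 1 and 0.14 with PR+/- pool 5, and PRKO pool 2 reached 0.11 with PR+/- pool 3. The numbers were not taken as pairs since the labels give no shared origin and not every same-numbered pair was over 0.1. The causes were not tested. Dim genes such as Il6 and Traf1 limit what signal over background allows.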
